A study of Mus musculus with 11 samples.

Results

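The cluster of mmu-miR-183, mmu-miR-96 and mmu-miR-182 comprises 3 microRNAs (miRNAs) and was examined in mammary glands of 3 mouse strains and in C3(1)/Tag mammary tumors. The members were chosen by name, as the spots whose annotation carries one of these names. They are 3 of the 334 mouse miRNAs on the array and 12 of its 1336 plus-strand mouse spots, with 4 spots each. The cluster was picked because of its pattern in these same data, so that its differences between groups are given as a description and without p-values. The study measured miRNAs in total RNA on a custom Agilent array. The glands came from normal mice in late pregnancy and comprise 2 arrays of strain FVB, 3 of strain Balbc (Balb/C) and 3 of strain FVB129B6. The 3 tumor arrays, with the label C3TAg, are primary mammary tumors of FVB mice that carry the SV40 T/t antigens under the C3(1) promoter, a fragment of a rat prostate gene that is also active in mammary epithelium. FVB is thus the strain of both the tumors and one gland group, while no gland array carries a transgene by its labels.

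The 3 miRNAs are cut from hairpins that are transcribed together, and each guides silencing complexes to messenger RNAs that pair with its seed, the short run of bases near its 5′ end. The cluster is best known from sensory organs, where it is abundant in hair cells of the inner ear and in photoreceptors, and it is also found in epithelia and in many carcinomas. In the mouse genome (GRCm38.p6, RefSeq) the hairpins lie on the minus strand of chromosome 6, those of Mir182 at chr6:30165918-30165992, of Mir96 at chr6:30169446-30169551 and of Mir183 at chr6:30169668-30169737. Mir96 and Mir183 are separated by 116 bases and Mir182 by another 3453 bases, within a span of 3820 bases.

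The mature sequences are shown because the members differ little where they contact their targets. They are given 5′ to 3′ from RefSeq, with the seed (bases 2 to 8) in capitals.
mmu-miR-182-5p: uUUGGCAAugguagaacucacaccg
mmu-miR-96-5p: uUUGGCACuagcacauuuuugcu
mmu-miR-183-5p: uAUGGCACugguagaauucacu
Counted from the 5′ end, the seeds of miR-182 and miR-96 differ by A8C, and those of miR-183 and miR-96 by A2U. Between miR-182 and miR-183 both positions differ (U2A and A8C). Among the mature miRNAs of the reference, miR-1271-5p shares the seed of miR-96, and no other shares that of miR-182 or miR-183.

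Because a probe can bind a close relative of its target, the miRNA-specific part of each deposited probe is given next, 5′ to 3′, with the complement of the seed in capitals.
Probe of mmu-miR-182: tgtgagttctaccaTTGCCAAa
Probe of mmu-miR-96: agcaaaaatgtgctaGTGCCAAa
Probe of mmu-miR-183: cagtgaattctaccaGTGCCATa
The parts for miR-182 and miR-183 lie 5 base edits apart, and those for miR-96 and the other members 9 or 10 edits. No other mouse probe lies within 5 edits of a member. The probe part for miR-182 is 3 bases shorter than the RefSeq mature form, and its GC content is 40.9%, against 43.5% for miR-183 and 39.1% for miR-96. Probes differ in how brightly they report a given amount, so no member's level is set against another's here.

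All levels below are log2 of the green intensity minus the array's median log2 intensity over the 1336 spots, averaged over the spots of a miRNA, so that 0 is the median of the array. On a given array a miRNA is taken as well above background if the scanner program marked 50% or more of its spots that way. By this measure 209 to 262 miRNAs were detected on the gland arrays but only 15, 38 and 64 on the tumor arrays, whose median spot is therefore a background signal. The median intensity was 245.5 and 188.5 on the FVB arrays and between 508 and 671.5 on the other gland arrays. The 8 gland arrays shared a slide and the tumors had another slide and another program version, so that tumor, slide and version cannot be told apart. On the gland slide no strain shared the column of the FVB arrays, and position and strain cannot be told apart there either.

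miR-182 was highest in FVB glands, and it was well above background on each of the 8 gland arrays. Its level was 5.74 and 5.46 in the FVB glands. In Balbc glands it was 3.87, 3.59 and 4.17, and in FVB129B6 glands 4.15, 4.26 and 4.30. Both FVB arrays lay above every array of the other strains, while Balbc and FVB129B6 overlapped. The means were 5.60 ± 0.20 (SD, n = 2) in FVB, 3.88 ± 0.29 (SD, n = 3) in Balbc and 4.24 ± 0.08 (SD, n = 3) in FVB129B6. The log2 difference from FVB was -1.72 (standard error 0.21) in Balbc and -1.36 (standard error 0.21) in FVB129B6. Between Balbc and FVB129B6 it was -0.36 (standard error 0.19).

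miR-183 had the dimmest spots of the cluster, with mean green intensities from 200.2 to 766.5 over the gland arrays, but it too was well above background on all 8. Its level was 0.65 and 2.02 in the FVB glands, a gap of 1.37 within the strain. In Balbc glands it was -0.97, -1.35 and -0.46, and in FVB129B6 glands -1.38, -1.15 and -0.93. The FVB arrays again lay above all others, and Balbc and FVB129B6 overlapped. The means were 1.34 ± 0.97 (SD, n = 2) in FVB, -0.93 ± 0.45 (SD, n = 3) in Balbc and -1.15 ± 0.23 (SD, n = 3) in FVB129B6. The log2 difference from FVB was -2.26 (standard error 0.42) in Balbc and -2.49 (standard error 0.42) in FVB129B6. The size of these differences rests on which FVB array is used. Without FVB replicate 1 they were -2.95 and -3.18, and without FVB replicate 2 they were -1.58 and -1.81. Between Balbc and FVB129B6 the difference was 0.23 (standard error 0.38).

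miR-96 had a level of 4.80 and 5.25 in the FVB glands. It was 3.87, 3.46 and 4.22 in Balbc glands and 4.25, 4.13 and 4.47 in FVB129B6 glands. The order was the same as for miR-182, with no overlap between FVB and the other strains and an overlap of those with each other. The gap to the nearest array was smaller, since the lower FVB array lay at 4.80 and the highest FVB129B6 array at 4.47. The means were 5.03 ± 0.32 (SD, n = 2) in FVB, 3.85 ± 0.38 (SD, n = 3) in Balbc and 4.28 ± 0.17 (SD, n = 3) in FVB129B6. The log2 difference from FVB was -1.18 (standard error 0.26) in Balbc and -0.75 (standard error 0.26) in FVB129B6, and that between Balbc and FVB129B6 was -0.43 (standard error 0.23). One of the 4 miR-96 spots on FVB replicate 2 was marked as an outlier and left out.

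**Figure D1:**
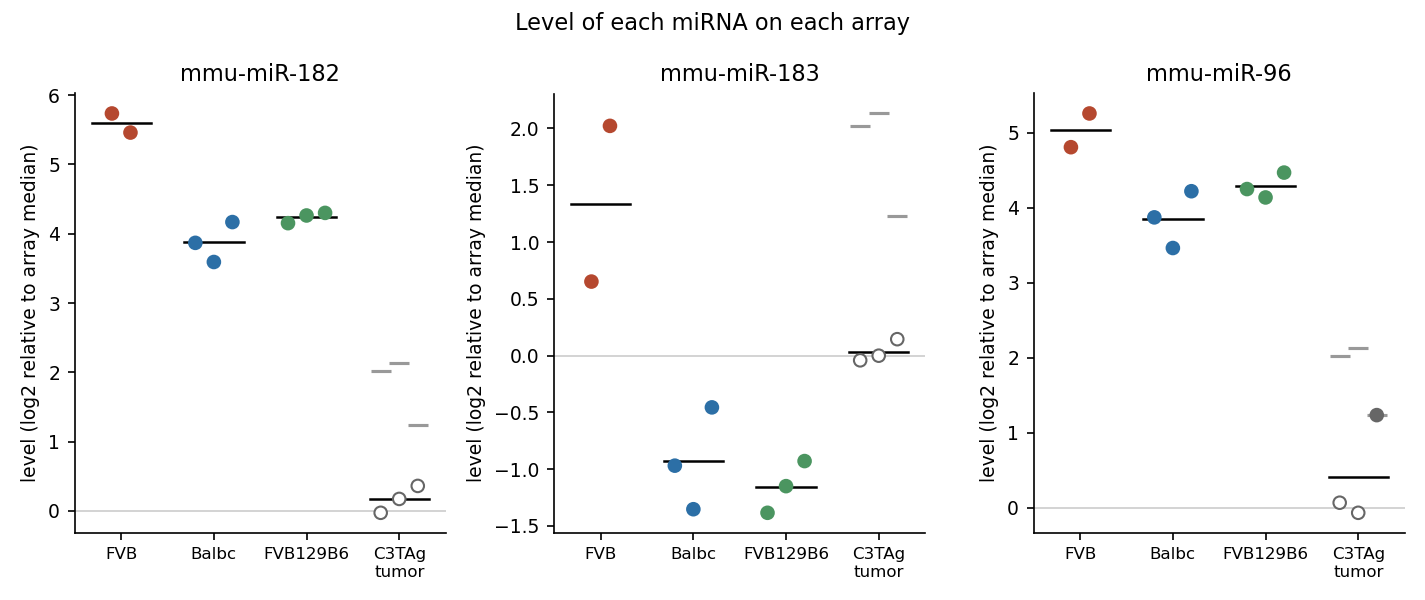
Level of each member on each array (log2 relative to the array median), by strain of gland and for the C3TAg tumors. Filled points are arrays on which the miRNA was well above background, open points are not, black lines are group means, and gray dashes mark the lowest level called above background on each tumor array. On this scale the FVB glands lie highest among the glands in each panel, and in the tumors all points but that of mmu-miR-96 in replicate 3 are open.

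The spots of one array agreed closely compared with these differences. The SD of log2 intensity among the 4 spots had a median of 0.04 for miR-182, 0.19 for miR-183 and 0.07 for miR-96 over the gland arrays. The spread between arrays of one strain, pooled over the strains, was 0.21 for miR-182, 0.54 for miR-183 and 0.30 for miR-96, against a median of 0.30 over the 261 miRNAs that were well above background on at least 3 gland arrays and entered the fit.

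The fit (limma with Benjamini-Hochberg adjustment over the 261 miRNAs, threshold 0.05) called all 3 members lower in Balbc than in FVB glands, where 32.2% of all miRNAs were called lower and 5.75% higher. It called 2 members, miR-182 and miR-183, lower in FVB129B6 than in FVB glands, where 31.4% of all were called lower and 8.05% higher. Between Balbc and FVB129B6 none of the 3 was called, and 3.45% of all were called in either direction (9 miRNAs, with 55 at an unadjusted p under the threshold). Nothing is read from these counts for the members, which were picked for this pattern. The distribution of all miRNAs was shifted in the same direction, as the median log2 difference over the 261 was -0.48 in Balbc and -0.39 in FVB129B6 relative to FVB. How many of the 261 had both FVB arrays above all other gland arrays was not counted. Nothing is therefore read from that order for the members.

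Taken relative to that median, miR-182 was lower than in FVB by a log2 difference of -1.24 in Balbc and -0.97 in FVB129B6. miR-183 was lower by -1.78 and -2.10, and miR-96 by -0.70 and -0.36. A constant added to an array does not alter these values. Ordered from the lowest of the 261 differences, miR-183 ranked 1 in Balbc and 2 in FVB129B6. miR-182 ranked 6 and 29, and miR-96 ranked 38 and 84. These ranks belong to the green signal. As green over red, miR-183 ranked 14 and 18, miR-182 ranked 5 and 26, and miR-96 ranked 24 and 46. With normexp miR-183 ranked 1 and 4, miR-182 ranked 4 and 54, and miR-96 ranked 99 and 156.

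**Figure D2:**
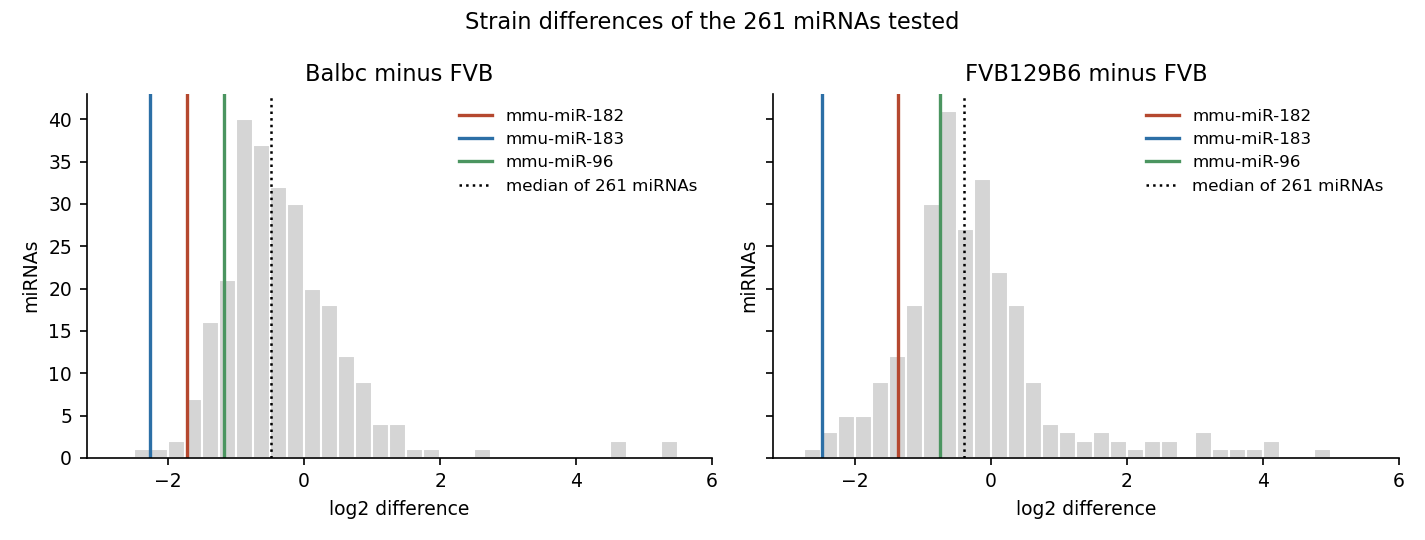
Distribution of the log2 differences from FVB glands over the 261 miRNAs tested, in Balbc (left) and FVB129B6 (right) glands, with the number of miRNAs on the y axis. Colored lines mark the members and the dotted line the median. mmu-miR-183 lies at the lower end in both, at -2.26 and -2.49, and mmu-miR-96 lies nearest of the 3 to the median.

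The size of the members' differences depended on the scaling. The FVB arrays were dimmer as a whole, and 229 and 209 miRNAs were detected on them, against 246 to 262 on the other gland arrays. Why the scalings gave different sizes was not tested. With the 75th percentile of each array as its reference, the median over all miRNAs was -0.05 in Balbc and -0.03 in FVB129B6. miR-182 then differed from FVB by -1.29 and -0.99, miR-183 by -1.83 and -2.13, and miR-96 by -0.75 and -0.38. At this scaling 2 members, miR-182 and miR-183, were called lower in each comparison, beside 6.13% of all miRNAs in Balbc and 16.5% in FVB129B6. With the normexp background correction, which raises dim spots, miR-182 differed by -0.85 and -0.60, and miR-183 by -1.02 and -1.15. For miR-96 that setting gave -0.29 in Balbc and 0.06 in FVB129B6, so that its direction in FVB129B6 turned.

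The unscaled intensities show what the scaling acts on. miR-182 had a mean intensity of 13100 and 8305 on the FVB arrays, within or near the range of 6128 to 12900 on the other gland arrays. miR-96 had 6868 and 6390 on the FVB arrays, inside the Balbc range of 5600 to 10400 and below the FVB129B6 range of 9882 to 11880. For miR-183 the FVB values of 387.2 and 766.5 reached from within the Balbc range, 200.2 to 410.5, to above all other gland arrays. Without scaling, an alternative chosen after the data were seen, miR-182 differed from FVB by -0.37 in Balbc and 0.05 in FVB129B6, miR-183 by -0.91 and -1.08, and miR-96 by 0.17 and 0.67.

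**Figure D3:**
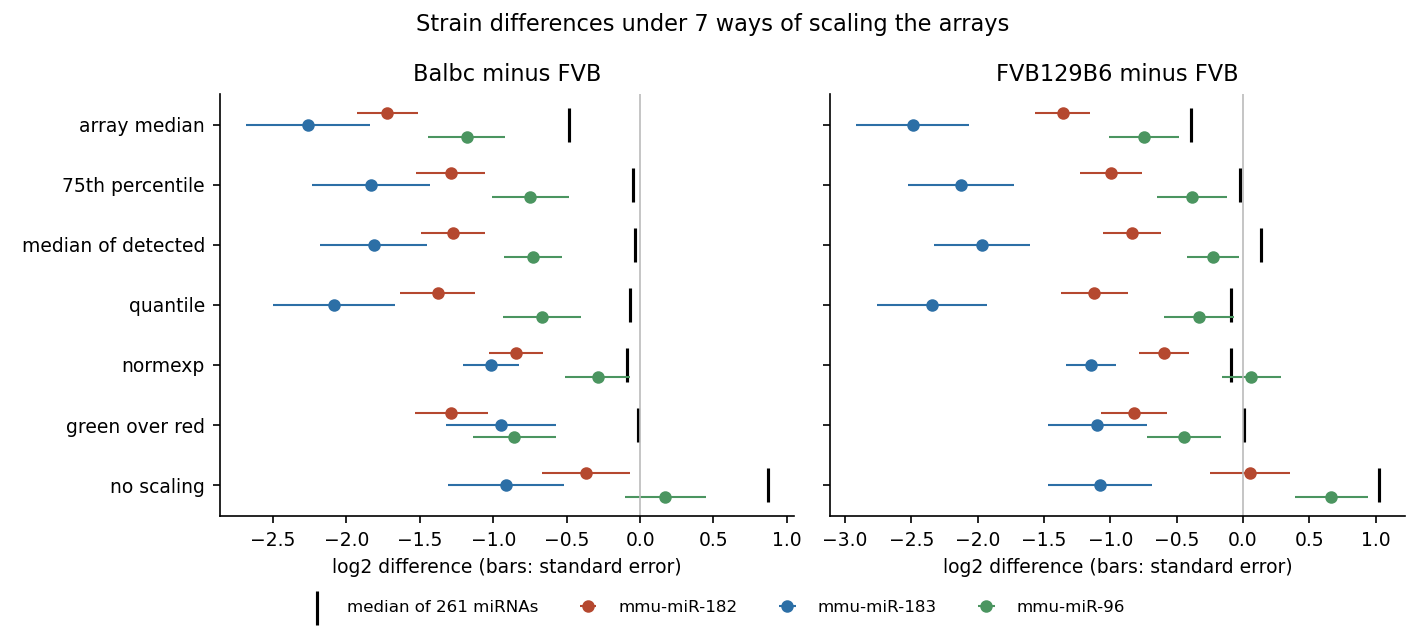
Log2 difference of each member from FVB glands under 7 scalings (x axis, with standard errors as bars), for Balbc (left) and FVB129B6 (right) glands. Black ticks mark the median of the 261 miRNAs under the same scaling. mmu-miR-183 and mmu-miR-182 lie to the left of the tick under each of the 7, while mmu-miR-96 passes to its right in FVB129B6 under normexp.

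On the green signal the mean changes of the members between strains differed in size. A scaling constant cancels within an array in the change of one member relative to another. From FVB to FVB129B6, miR-183 fell by 1.74 (standard error 0.29) more than miR-96 on the log2 scale and by 1.13 (standard error 0.49) more than miR-182. miR-182 fell by 0.61 (standard error 0.23) more than miR-96. From FVB to Balbc the corresponding values were 1.08 (standard error 0.29), 0.54 (standard error 0.49) and 0.54 (standard error 0.23). The changes relative to miR-182 depend on which FVB array is used. On the FVB arrays miR-182 minus miR-183 was 5.09 and 3.44, on either side of the Balbc values of 4.62 to 4.95. There miR-182 minus miR-96 was 0.93 and 0.21, and at most 0.13 on the other gland arrays. For miR-183 minus miR-96 the FVB values were -4.15 and -3.23, and the highest elsewhere was -4.67. Between Balbc and FVB129B6, miR-182 was shifted relative to miR-96 by 0.07 (standard error 0.21), miR-183 relative to miR-96 by 0.66 (standard error 0.26) and miR-182 relative to miR-183 by -0.59 (standard error 0.44). The changes that involve miR-183 depended on the signal used, in alternatives chosen after the data were seen. As green over red, miR-183 fell from FVB to Balbc by 0.092 (standard error 0.27) more than miR-96, and the shift of miR-182 against miR-183 turned from 0.54 to -0.34 (standard error 0.50). From FVB to FVB129B6 miR-183 then fell by 0.65 (standard error 0.27) more than miR-96. The shift of miR-182 against miR-96 as green over red was -0.43 in Balbc and -0.38 in FVB129B6 (standard errors 0.29). With normexp the shift of miR-182 against miR-183 was 0.17 in Balbc and 0.55 in FVB129B6 (standard errors 0.29).

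Within the Balbc glands the 3 members deviated together, and within FVB129B6 they deviated little. Within FVB, miR-183 and miR-96 went the same way and miR-182 the other way. In Balbc glands, replicate 2 lay below the strain mean for every member, by -0.28 for miR-182, -0.43 for miR-183 and -0.39 for miR-96. Replicate 3 lay above it, by 0.29, 0.47 and 0.37, and replicate 1 lay within 0.05 of it for each. The titles of Balbc replicates 2 and 3 differ by a final letter and could name glands of the same mouse. The median deviation of all 261 miRNAs on these arrays was -0.03 for replicate 2 and 0.02 for replicate 3. In FVB129B6 glands the deviations were smaller. Replicate 1 lay at -0.09 for miR-182, -0.23 for miR-183 and -0.04 for miR-96, and replicate 3 at 0.06, 0.23 and 0.18, where the median over all miRNAs was -0.03 and 0.14. Replicate 2 lay at 0.02 for miR-182 and -0.15 for miR-96, on either side of the mean.

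In FVB glands, replicate 2 lay above the strain mean by 0.69 for miR-183 and 0.22 for miR-96 and below it by -0.14 for miR-182, and with 2 arrays replicate 1 mirrors these values. Over the 8 gland arrays the difference between a pair of members on an array had an SD, after removal of the strain means, of 0.26 for miR-182 and miR-96, 0.32 for miR-183 and miR-96, and 0.54 for miR-182 and miR-183. The median over all 33930 pairs of the 261 miRNAs was 0.46. Over the 6 Balbc and FVB129B6 arrays, a subset that was not planned, these SDs were 0.13, 0.14 and 0.16, against a median of 0.38 over all pairs.

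The Pearson correlation of the deviations over the 8 arrays was 0.54 for miR-182 and miR-96, 0.87 for miR-183 and miR-96 and 0.19 for miR-182 and miR-183, beside a median of 0.09 over all pairs. Over the 6 arrays it was 0.92, 0.93 and 0.97, beside a median of 0.15. These 6 were not planned as a set and leave out the strain in which miR-182 went the other way. Coherence of the cluster is therefore not read from them. The Balbc arrays held 93.3% of the squared deviations of miR-182 over these 6 arrays, 79.6% of those of miR-183 and 83.5% of those of miR-96, so that the values rest mainly on Balbc replicates 2 and 3. These are descriptions over few arrays, and the points of a pair share the array, its scaling and its labeled RNA.

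**Figure D4:**
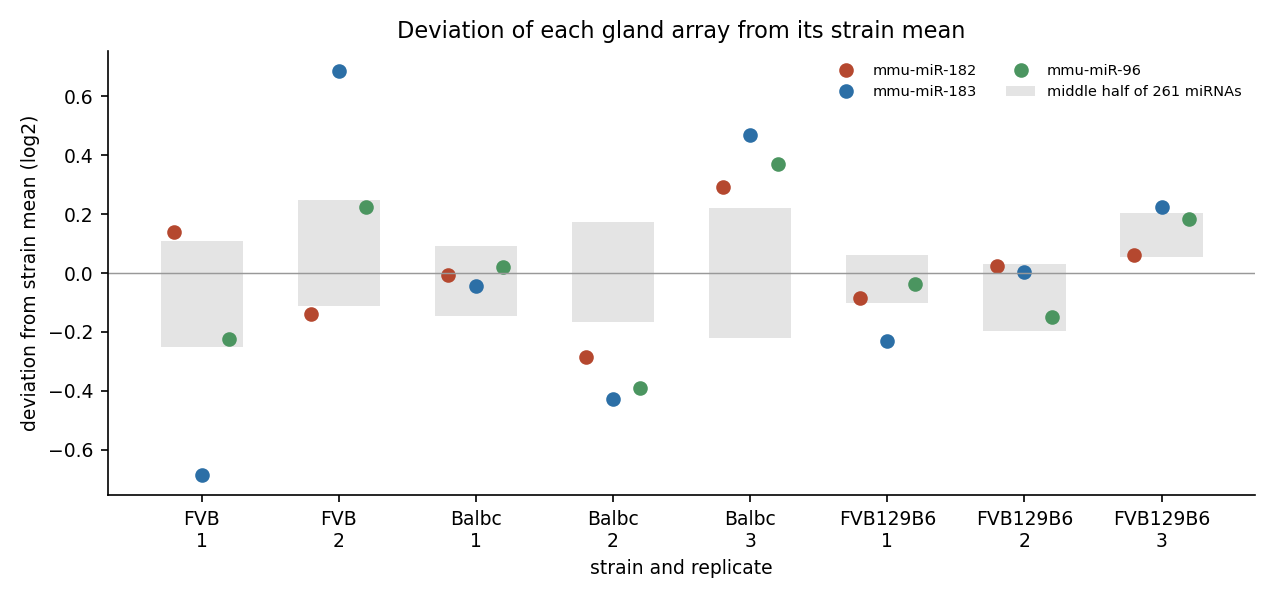
Deviation of each member from its strain mean (log2) on the 8 gland arrays, by strain and replicate. Gray bars span the central part, from the lower to the upper quartile, of the deviations of the 261 miRNAs. The 3 members lie on the same side of the mean on Balbc replicates 2 and 3. On the FVB arrays mmu-miR-182 lies opposite the other members, and mmu-miR-183 is at -0.69 and 0.69.

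Likeness over the glands was measured as the Pearson correlation of levels over the 8 arrays with each of the other 260 miRNAs that entered. It carries the step between FVB and the other strains as well as the variation within them. The miRNAs most like miR-182 were miR-107 (r = 0.97), miR-27b (0.97), miR-711 (0.97), miR-762 (0.97) and let-7d (0.96). Its cluster partners miR-96 (0.91) and miR-183 (0.87) ranked 26 and 41. Most like miR-183 were miR-125a (0.99), miR-690, let-7b, miR-689 and miR-28 (each 0.98), and miR-182 and miR-96 ranked 51 and 52. Most like miR-96 were miR-210 (0.96), miR-187 (0.96), let-7e (0.95), miR-146b (0.95) and miR-181b (0.94), with miR-182 at rank 16 and miR-183 at rank 37. The median correlation with all other miRNAs was 0.51 for miR-182, 0.53 for miR-183 and 0.41 for miR-96. No member had another member among its 5 most alike.

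Epithelial miRNAs were compared first, since mammary epithelium is where the cluster would be sought in this tissue. All 7 on the list (the miR-200 family of miR-200a, miR-200b, miR-200c, miR-141 and miR-429, with miR-203 and miR-205) were detected above background on each of the 8 gland arrays. Their summed level ranged from 8.77 to 9.80 in FVB, 8.06 to 8.94 in Balbc and 8.90 to 9.27 in FVB129B6 glands. In Balbc, 2 of the 7 were called lower than in FVB, beside 32.2% of all miRNAs. These were miR-200c, by -1.29 on the log2 scale (standard error 0.41, limma adjusted p = 0.0429), and miR-203, by -0.99 (standard error 0.31, limma adjusted p = 0.0392). Neither passed at the 75th percentile scaling. The median log2 difference of the 7 between Balbc and FVB was -0.81, against -0.48 over all miRNAs, and at the 75th percentile scaling it was -0.38 against -0.05. In FVB129B6 none of the 7 was called in limma's fit, beside 31.4% of all miRNAs called lower and 8.05% higher. The median difference of the 7 from FVB was -0.17 there, against -0.39 over all miRNAs. Whether epithelial content had a part in the members' differences was not tested, and in tissue RNA fewer cells of a type and less RNA per cell cannot be told apart.

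Markers of skeletal muscle differed far more between the strains. The 3 listed miRNAs on the array, miR-1, miR-206 and miR-133b, were all called higher than in FVB, beside 5.75% of all miRNAs in Balbc and 8.05% in FVB129B6. Their median log2 difference was 5.32 in Balbc and 4.15 in FVB129B6. Their summed level was 3.64 and 6.02 on the FVB arrays, 9.17 to 9.97 in Balbc and 8.45 to 8.62 in FVB129B6, with none of the 3 below background on a gland array. The FVB glands, where the cluster was highest, thus held the lowest levels of muscle miRNAs, and the part of muscle RNA in the members' differences was not tested. Of 6 blood and lymphoid miRNAs, 1 was called lower in Balbc than in FVB (miR-451, an erythroid miRNA, by -1.38), beside 32.2% of all miRNAs, and it was not called at the 75th percentile scaling (-0.95). In FVB129B6 3 were called lower (miR-451 by -2.59, miR-144 by -1.66 and miR-486 by -1.84), beside 31.4% of all. The summed level of this list was 9.66 to 9.72 in FVB, 7.93 to 9.56 in Balbc and 7.25 to 7.76 in FVB129B6, so that it too was highest in FVB. That sum is mostly miR-451, whose mean level in FVB was 9.53, with miR-142-5p next at 4.58. The median log2 difference of the 6 from FVB was -0.36 in Balbc and -1.75 in FVB129B6, against -0.48 and -0.39 over all miRNAs. Of 4 stromal miRNAs (miR-143, miR-145, miR-199a and miR-214), none was called against FVB in either strain, beside the 32.2% and 31.4% of all called lower. The summed stromal level was 9.57 to 10.21 in FVB, 9.12 to 9.54 in Balbc and 9.18 to 9.43 in FVB129B6, so that it was highest in FVB as well. The median log2 difference of the 4 from FVB was -0.47 in Balbc and -0.40 in FVB129B6, close to the -0.48 and -0.39 over all miRNAs. At the 75th percentile scaling it was -0.04 in both, against -0.05 and -0.03 over all.

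The list of sensory and neural miRNAs, the tissues from which the cluster is best known, holds 7, of which 6 entered the fit. miR-124a, an abundant neuronal miRNA, was called lower than in FVB by -1.38 (standard error 0.17, limma adjusted p = 0.0024) in Balbc and by -1.43 (standard error 0.17, limma adjusted p = 0.00275) in FVB129B6. miR-9 was called lower in both as well, by -1.34 and -1.20. It was well above background on 7 gland arrays, and the exception was an FVB array. With miR-204, lower in Balbc by -0.52, 3 of the 6 were called lower in Balbc and 2 in FVB129B6, beside 32.2% and 31.4% of all miRNAs. At the 75th percentile scaling miR-124a alone of these remained called, and miR-211, which was above background on neither FVB array, was called higher in FVB129B6. The median over the 6 was -0.51 in Balbc and -0.50 in FVB129B6, where the medians over all miRNAs were -0.48 and -0.39.

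Neighbors on the chromosome were examined because miRNAs transcribed nearby could vary with the cluster. Of the 7 other miRNA genes within 10 Mb in RefSeq, 6 have a miRNA on the array and 4 of these entered the fit. miR-335, whose gene lies 571.6 kb from the cluster, differed from FVB by -0.61 in Balbc (standard error 0.24) and -0.14 in FVB129B6 (standard error 0.24), and was not called. miR-29a and miR-29b, at about 893 kb, differed by -0.67 and -0.68 in Balbc and by -0.70 and -0.64 in FVB129B6, and were not called. These are near-identical relatives, and miR-29b has a second gene elsewhere. miR-129-5p, which also has a second gene, was called lower in both strains but was well above background on no Balbc array, so that its difference there is not a measured size. miR-592 and miR-490 did not enter. Thus 1 of 4 neighbors was called lower in each strain, beside 32.2% of all miRNAs in Balbc and 31.4% in FVB129B6.

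In the C3TAg tumors the cluster was at or near background. The level of miR-182 was -0.03, 0.17 and 0.36, that of miR-183 was -0.04, 0.00 and 0.14, and that of miR-96 was 0.06, -0.07 and 1.23. miR-182 and miR-183 were well above background on none of the 3 tumor arrays, and miR-96 on replicate 3 alone, by 2 of its 4 spots. The intensities of miR-182 were 168.2 to 177.5 in the tumors against 6128 to 13100 in the glands, and those of miR-96 were 133.5 to 369.2 against 5600 to 11880. For miR-183 they were 140 to 165.2 against 200.2 to 766.5. All 3 members were brighter on every gland array than on every tumor array, in intensities that are not scaled. The median spot was ordered in the same way, at 188.5 to 671.5 on the gland arrays and 125 to 170 on the tumor arrays. How many other miRNAs were ordered so was not counted. On the array-median scale the mean of miR-183 was 0.03 in the tumors, above -0.93 in Balbc and -1.15 in FVB129B6 glands.

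A size can be given only as a bound, in which a tumor array counts with its own level or with the dimmest level called above background there, whichever is larger. On tumor replicate 3 that dimmest level, 1.23, is the level of miR-96 itself, so that a member sets the limit there. On replicates 1 and 2 the limit was 2.02 and 2.13. On the array-median scale miR-182 was at least 14.0-fold lower in the tumors than in FVB glands and at least 6.85-fold lower than the mean of the 3 strains. miR-96 was at least 9.41-fold and 6.03-fold lower. Without tumor replicate 3 the log2 bound below FVB glands went from 3.80 to 3.52 for miR-182 and from 3.23 to 2.95 for miR-96. For miR-183 no fold can be given, because even the FVB mean of 1.34 lies below the tumors' mean limit of 1.80. These bounds rest on the scaling. On the 75th percentile scale miR-182 was at least 1.48-fold lower than in FVB glands, and no fold remained for miR-182 against the mean of the strains or for miR-96 against either. The median over the 261 miRNAs of the log2 difference between tumors and FVB glands was -1.04 on the first scale and 2.20 on the second.

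The low levels were shared by other miRNAs of the tissue on these arrays. Of the 7 epithelial miRNAs, miR-205 was well above background on all 3 tumor arrays, while miR-200b, miR-141 and miR-203 were on none. The summed epithelial level was 4.26 to 4.68 in the tumors. Among the stromal miRNAs miR-145 was well above background on all 3 and miR-143 and miR-214 on none, and 4 of the 6 blood and lymphoid miRNAs were on none. Whether the tumors or the detection on their slide set the members' low signal cannot be told apart.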

How the data were processed

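The members and the lists of other miRNAs were chosen with earlier results of these data known. Total RNA was labeled with Hy3 and/or Hy5 and hybridized to a custom Agilent array, and spots were read with Feature Extraction (version 9.5.1.1 for tumors and 10.5.1.1 for glands). The authors deposited green and red processed intensities of each spot, with background and outlier calls. They also deposited a log2 table, which equals the log2 green intensity plus a constant per array after their global median normalization. Their filter on detection calls could not be repeated from these values.

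Here log2 green intensities of the 1336 mouse plus-strand spots were centered on the array median, spots marked as outliers were removed and the 4 spots of each miRNA averaged. A miRNA entered a fit when at least 50% of its spots were well above background on at least 3 arrays. Strains were compared over the 8 gland arrays, and tumors with glands over all 11, with limma 3.58.1 in R 4.3.3 (lmFit, eBayes, Benjamini-Hochberg, threshold 0.05). The fits were tested on simulated data. Coherence was the SD of the difference between members within arrays after removal of strain means. The miRNAs named for likeness are the 5 with the highest Pearson correlation with each member. Listed miRNAs are named where they were called, define a list or lie near the cluster. Alternatives were other scalings, normexp (offset 50), the deposited log2 table, outlier spots kept, a floor, other filters, green over red, the replicate number as a block, Balbc replicates 2 and 3 averaged, and each array left out. Array names were matched to RefSeq genes for 300 of 334 miRNAs, and edits between probes were counted with edlib 1.3.9.post1 on the deposited probe sequences. Tables were made with Python 3.11.15, numpy 2.4.6 and pandas 2.3.3, and figures with matplotlib 3.10.9. Replicates are separate samples by their labels, but nothing says that each is a separate mouse, so errors may be partly technical. The number of arrays limits the precision.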

Additional observations from a re-analysis of the deposited data

Results flagged for a closer look

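The red channel was not part of the measurement reported by the authors, and what it holds is not stated in the sources used here. It carried signal for most miRNAs, as 295 of the 334 on the array were well above background in red on at least 3 gland arrays. The members were among these. mmu-miR-182, mmu-miR-183 and mmu-miR-96 were each well above background in red on 8 of 8 gland arrays and on none of the 3 tumor arrays. Scaled on the array's red median, miR-183 was lower than in FVB by a log2 difference of -0.80 (standard error 0.15) in Balbc and -1.05 (standard error 0.15) in FVB129B6 glands, where the medians over the 295 miRNAs that entered in red were 0.04 and -0.11. The unscaled red intensities of miR-183 overlapped, at 75.95 to 78.77 in FVB, 67.1 to 89.15 in Balbc and 73.8 to 86.55 in FVB129B6 glands. The red array median was 598.5 and 527.5 on the FVB arrays and 821 to 1365 on the other gland arrays. The scaled red difference of miR-183 thus rests on these medians. miR-182 differed from FVB by 0.08 and -0.19 and miR-96 by 0.19 and 0.05 (standard errors 0.10), beside the green differences of -1.72 and -1.36 for miR-182 and -1.18 and -0.75 for miR-96. On the red 75th percentile scale the values of miR-183 were -0.96 and -1.02. Red and green were read from the same spots, and no test is given. No group had the 4 arrays needed to look for a single deviating sample.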

How the results depend on the processing

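All strain differences of the members kept their sign apart from the following. Those of miR-96 against FVB turned in both strains without scaling, and in FVB129B6 also with normexp. That of miR-182 in FVB129B6 turned without scaling. That of miR-183 between Balbc and FVB129B6 went from 0.23 to -0.0068 without Balbc replicate 3. The scaling moved the sizes most. For miR-182 the log2 difference between Balbc and FVB was -1.29 at the 75th percentile, -1.27 with the median of the miRNAs above background on all arrays, -1.38 with quantile normalization, -0.85 with normexp, -1.28 as green over red and -0.37 without scaling. The corresponding values between FVB129B6 and FVB were -0.99, -0.84, -1.12, -0.60, -0.82 and 0.053. For miR-96 they were -0.75, -0.73, -0.67, -0.29, -0.86 and 0.17 in Balbc, and -0.38, -0.22, -0.33, 0.062, -0.45 and 0.67 in FVB129B6. For miR-183, normexp gave -1.02 and -1.15, green over red -0.95 and -1.10, and no scaling -0.91 and -1.08. With single arrays left out, miR-183 ranged from -2.95 to -1.58 in Balbc and from -3.18 to -1.81 in FVB129B6, miR-182 from -1.87 to -1.58 and from -1.50 to -1.22, and miR-96 from -1.41 to -0.96 and from -0.97 to -0.52.

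The number of members called against FVB was 1 in Balbc and 0 in FVB129B6 as green over red, and 0 and 1 without scaling. It was 2 or 3 in both with each array left out. In FVB129B6 miR-96 joined miR-182 and miR-183, for 3 in place of 2, with the replicate block, with Balbc replicates 2 and 3 averaged, without the filter and with the filter on every array. The share of all miRNAs called under these settings is not given here, so that nothing is read from these counts. With the replicate block the differences from FVB in Balbc were -1.81 for miR-182, -2.44 for miR-183 and -1.32 for miR-96, and in FVB129B6 -1.45, -2.67 and -0.89. Whether the numbers pair the arrays cannot be settled from so few. Same-numbered arrays had a mean correlation of 0.04 over 7 pairs and arrays of different number -0.02 over 14 pairs. Of 8 arrays, 4 correlated best with an array of their own number.

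The shift of miR-182 against miR-183 from FVB to Balbc turned from 0.54 to -0.34 as green over red.

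The log2 bound of tumors below FVB glands fell for miR-182 from 3.80 to 0.56 at the 75th percentile, 0.84 with the median of detected miRNAs and 0.40 with quantile normalization, and for miR-96 from 3.23 to -0.0068, 0.27 and -0.24. Against the mean of 3 strains it was -0.20, 0.24 and -0.33 for miR-182 and -0.38, 0.060 and -0.53 for miR-96, while normexp gave 3.30 and 3.16. With single arrays left out, the bounds of miR-182 ranged from 3.52 to 3.97 and from 2.49 to 2.94. The median spot of the tumor arrays is a background signal, which limits any level there.

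The SD of the difference between miR-182 and miR-183 within arrays was 0.32 with normexp and from 0.16 to 0.60 with an array left out. It was 0.39 for miR-182 and miR-96 with quantile normalization and from 0.13 to 0.29 with an array left out, and 0.16 for miR-183 and miR-96 with normexp and from 0.14 to 0.35 with an array left out. The lowest of each came without either FVB array, which leaves the other FVB array with no deviation.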
